A study of Mus musculus with 6 samples.

Results

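The genes described here encode subunits of voltage-gated sodium channels, the membrane proteins that open on depolarisation and carry the rising phase of the action potential in sensory neurons. There were 9 of them among the 38926 gene symbols in the count files, taken by symbol from a list that was drawn up with earlier results of these data known. Of these, 6 encode pore-forming alpha subunits (Scn1a, Scn3a, Scn8a, Scn9a, Scn10a and Scn11a) and 3 encode auxiliary beta subunits (Scn2b, Scn3b and Scn4b). They were measured in total RNA of lumbar dorsal root ganglia L3 to L5, taken whole, where the cell bodies of sensory neurons lie. There were 3 burn libraries, made 3 days after injury, and 3 control libraries. All animals were male wild type C57BL/6 mice of 6 to 8 weeks, and the labels give neither the treatment of the controls nor the number of animals behind a library. The burn library called burn 3 here has no number in its title (BURN_IP, where IP stands for ipsilateral per the series' design text), and the side of the other burn libraries is not stated. Where nothing says that libraries came from separate animals, p-values cover only the spread among these 6 samples, and that spread may be technical.

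An alpha subunit forms a complete channel alone, and its identity sets the voltage range, the speed of inactivation and the sensitivity to tetrodotoxin. In sensory ganglia NaV1.8 (Scn10a) and NaV1.9 (Scn11a) are the tetrodotoxin-resistant channels of nociceptors, the neurons that signal painful stimuli, while NaV1.7 (Scn9a) is tetrodotoxin-sensitive and amplifies small depolarisations near their endings. NaV1.1 (Scn1a) and NaV1.6 (Scn8a) serve mainly fast-conducting myelinated neurons, and NaV1.6 is the main channel of nodes of Ranvier. NaV1.3 (Scn3a) is abundant before birth, scarce in the adult ganglion, and known from rats to return after axons are cut, when Scn10a and Scn11a fall. Beta subunits are immunoglobulin-fold proteins that alter gating and surface delivery of the pore.

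The total of reads assigned to genes ran from 22023565 to 70002671 in burn libraries and from 17273908 to 81968142 in control libraries. Burn 3 and control 3 were the deeper pair, each with at least 1.945 times the reads of any other library, and had mitochondrial transcripts at 5.44% and 4.41% of reads, against 1.71% to 2.70% in the rest. All 12 pan-neuronal markers were detected, with a summed level of 11544 to 13984 CPM (reads scaled to a common library size by edgeR) in burn libraries and 12403 to 17094 CPM in controls. By log2 fold change of burn over control, 9 of the 12 were negative (median -0.090), while 52.1% of all genes tested were positive. The labels call the tissue neurons, but it was whole ganglion: 5 Schwann cell markers summed to 3932 to 7981 CPM in burn libraries and 4859 to 8979 CPM in controls. Atf3, a transcription factor switched on in injured neurons, served as a check of the burn label and was 10.3-fold higher after the burn (95% interval 8.16 to 13.0, edgeR adjusted p 0.000387).

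All 9 sodium channel genes were well covered, with 130 to 70903 reads per gene and library, and all 9 passed the filter on low counts. None of the 9 passed the test between burn and control ganglia. By edgeR's quasi-likelihood test with Benjamini-Hochberg adjustment over 17534 genes, 0 of 9 were called, where 0.0228% of all genes tested were called, and the adjusted p was 0.9998 for each. Unadjusted p-values under 0.05 occurred in 0 members, against 2.96% of all genes. DESeq2 and limma-voom likewise called 0 members. The median log2 fold change of the members was 0.05, beside 0.0080 over all genes tested. In 0 of 9 members did the burn and control values separate without overlap, against 7.24% of all genes (4.33% with burn higher and 2.91% with burn lower). With DESeq2 size factors as the scaling the members' count was again 0, against 7.46% of all genes.

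**Figure D1:**
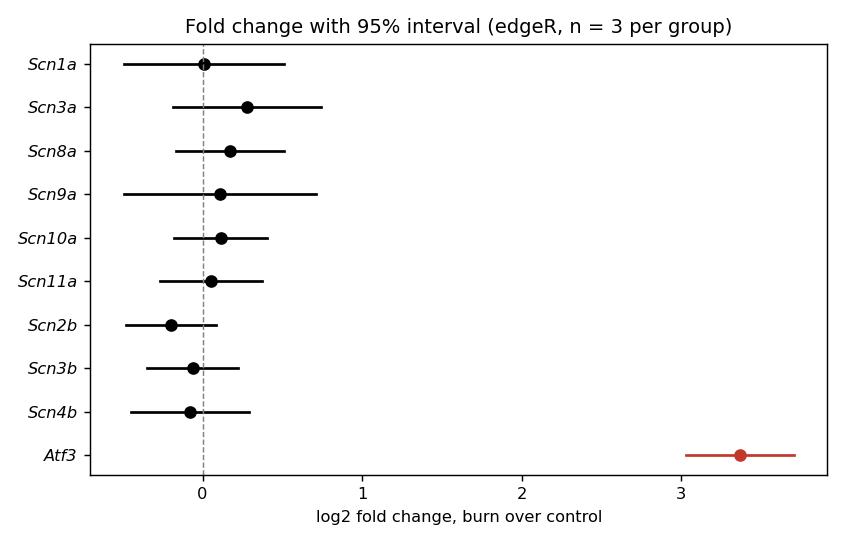
Log2 fold change of burn over control (horizontal axis) for the 9 sodium channel genes and for Atf3, with 95% intervals from the edgeR fit (n = 3 per group). The intervals of all 9 sodium channel genes include 0 and lie between -0.49 and 0.74, while that of Atf3 starts at 3.03.

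Per exon length, the highest levels belonged to Scn10a and Scn11a, the tetrodotoxin-resistant channels. Levels between genes are compared as RPKM, CPM per 1000 bases of merged exon length. Scn10a stood at 106, 113 and 119.9 RPKM in burn libraries 1 to 3 and at 96.3, 105 and 112 RPKM in control libraries 1 to 3. Scn11a stood at 84.5, 91.4 and 90.6 RPKM in burn libraries and at 80.7, 76.9 and 99.6 RPKM in controls. Scn10a exceeded Scn11a in 6 of 6 libraries, although the ranges of the genes over libraries overlapped. Next came Scn4b, at 64.8 ± 9.68 RPKM after the burn and 68.4 ± 9.43 in controls (mean ± SD, n = 3). Scn9a was next, at 47.1 ± 14.95 RPKM after the burn and 43.6 ± 10.3 in controls. By merged exon length Scn9a was below Scn4b and above Scn1a in every library. Scn1a followed at 18.3 ± 3.52 RPKM after the burn and 18.3 ± 4.66 in controls. The order of Scn3b, Scn2b and Scn8a was not the same in each library. Over 6 libraries they averaged 14.9 ± 1.38, 14.3 ± 1.65 and 12.9 ± 1.67 RPKM, and Scn3b exceeded Scn2b in 4 libraries. Scn2b exceeded Scn8a in 3 libraries, and these were the 3 controls. In controls 1 to 3 Scn2b had 14.9, 13.8 and 17.03 RPKM against 10.4, 11.9 and 13.96 for Scn8a. In burn libraries Scn8a was slightly higher, at 12.26, 13.5 and 15.06 RPKM against 12.12, 13.4 and 14.46 for Scn2b. The ratio of this pair, singled out after its values were seen, was not tested between groups. With the longest annotated transcript as length, Scn3b exceeded Scn2b in 6 of 6 libraries, so their order depends on the length used. The places of Scn9a beside Scn4b and of Scn8a beside Scn2b also rest on merged length. The longest transcript has 9840 bases against 12772 merged in Scn9a and 11436 against 15766 in Scn8a. It equals the merged length in Scn4b (4982) and Scn2b (4656). Scn3a was far below all others, at 0.795 ± 0.182 RPKM after the burn and 0.655 ± 0.0834 in controls.

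**Figure D2:**
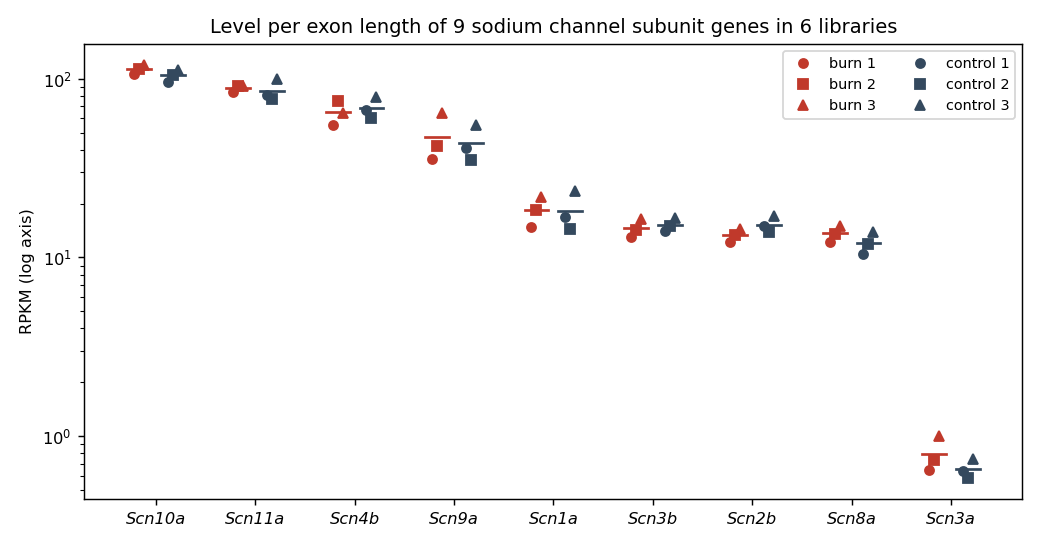
Level of each gene in RPKM (vertical axis, log scale) in 3 burn libraries (red, left) and 3 control libraries (dark blue, right); symbols mark the library number and lines the group means. Genes run from Scn10a, 96.3 to 119.9 RPKM, down to Scn3a, 0.581 to 0.999 RPKM, and burn and control points overlap in each gene.

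The 9 genes lie on 3 chromosomes, here given in GRCm38 coordinates from the GENCODE M21 annotation. Scn3a (65457118 to 65567627), Scn1a (66270778 to 66440840) and Scn9a (66480080 to 66634962) lie on the minus strand of chromosome 2. Scn10a (119608456 to 119719322) and Scn11a (119753759 to 119825456) are neighbours on the minus strand of chromosome 9. Chromosome 9 also carries the 3 beta genes on the plus strand, Scn3b at 40269217 to 40291618, Scn2b at 45117782 to 45130070 and Scn4b at 45138395 to 45154152. Scn8a lies alone on the plus strand of chromosome 15 at 100869858 to 101045938. All 9 are protein-coding. The alpha genes have longest transcripts of 27 or 28 exons, and the beta genes of 4 to 7 exons.

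Because these genes are paralogs, reads could be lost to multiple alignment. Distinct 75-base stretches of the annotated transcripts, the read length used, were searched on either strand in transcripts of other genes. Of these stretches 3.85% in Scn3a, 2.78% in Scn9a, 1.88% in Scn1a and 0.488% in Scn10a also occurred there, and 0 in the other 5 members. Stretches shared with an overlapping antisense gene count too, although they need not align to several places. Scn9a shares 180 exonic bases with the antisense gene Gm13629, which had 27 to 202 reads per library against 8032 to 55913 for Scn9a. Whether counting used strand is not stated, so reads of that overlap cannot be told apart. No other member shared exonic bases with another annotated gene.

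Promoter sequence is shown for the neighbours Scn10a and Scn11a, which had the highest levels, and for Scn8a, whose level followed that of Scn10a most closely across libraries (values further on). RefSeq's table (GRCm38.p6) held 300-base windows, 250 bases before to 50 after a transcript start, for 7 of the 9 members, and Scn3a and Scn3b had none. Printed are the 250 bases before the RefSeq start, 5′ to 3′ on the gene's strand. For Scn10a and Scn8a that start, and the bases printed, lie inside the GENCODE gene span given above. For Scn11a the bases printed lie outside it. Scn10a is on the minus strand at chr9:119719033-119719282 and Scn11a on the minus strand at chr9:119825457-119825706, with the longest run of letters they share in capitals. Scn8a is on the plus strand at chr15:100870395-100870644, the first of its 2 windows, with each CG in capitals.
Scn10a: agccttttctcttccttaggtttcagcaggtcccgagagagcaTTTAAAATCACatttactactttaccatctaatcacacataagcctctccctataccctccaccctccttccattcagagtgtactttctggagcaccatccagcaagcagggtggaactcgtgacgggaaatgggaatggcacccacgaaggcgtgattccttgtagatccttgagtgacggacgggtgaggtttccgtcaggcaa
Scn11a: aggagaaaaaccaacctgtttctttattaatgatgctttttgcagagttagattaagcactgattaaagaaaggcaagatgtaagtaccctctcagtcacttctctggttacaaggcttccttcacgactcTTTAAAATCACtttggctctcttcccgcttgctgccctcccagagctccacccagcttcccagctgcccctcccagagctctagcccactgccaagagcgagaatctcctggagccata
Scn8a: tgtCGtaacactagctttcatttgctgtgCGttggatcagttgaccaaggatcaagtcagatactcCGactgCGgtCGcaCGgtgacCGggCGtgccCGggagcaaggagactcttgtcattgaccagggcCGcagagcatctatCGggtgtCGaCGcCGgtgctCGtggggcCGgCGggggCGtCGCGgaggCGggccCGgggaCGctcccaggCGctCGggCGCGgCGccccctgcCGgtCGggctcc
The run TTTAAAATCAC, 11 letters long, was the longest shared by any pair of the members' windows and occurs on either strand in 8 of 32851 windows (0.0244%). That share describes a run picked for its length, and other pairs, such as Scn11a and Scn2b, shared runs of 10 letters. Counted from the transcript start, it begins at position -207 in Scn10a and at position -119 in Scn11a. Windows differed in CG content: over the full 300 bases the first Scn8a window held 38 CG pairs (30 of them in the 250 bases printed) and Scn4b 26, against 12 in the second Scn8a window, 11 in Scn10a, 9 in Scn9a, 5 in Scn1a, 3 in Scn11a and 2 in Scn2b, where the median over all windows was 7. The AP-1 motif TGANTCA and the CRE motif TGACGTCA, searched on both strands because Atf3 binds such sites, matched in 0 of the 8 windows, while 7.81% and 1.79% of all windows hold them. The TATA motif TATAAA matched in 0 of 8 windows (13.6% of all windows), and the CCAAT motif in those of Scn1a and Scn4b (37.4% of all windows). These matches describe letters in these windows.

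Among the tetrodotoxin-resistant channels, Scn10a had the smallest spread of all members, with a coefficient of variation of 7.39% over 6 libraries. Its level was 847, 899 and 955 CPM in burn libraries 1 to 3 and 767, 839 and 891 CPM in control libraries 1 to 3. Burn 3 was the highest and control 1 the lowest library, and the groups overlapped. The log2 fold change was 0.11 (SE 0.13, edgeR adjusted p 0.9998), and its 95% interval ran from 0.882-fold to 1.33-fold. Scn11a stood at 501, 542 and 537 CPM in burn libraries and at 479, 456 and 591 CPM in controls. The highest and the lowest of these 6 values were both controls. Its log2 fold change was 0.05 (SE 0.14), with an interval from 0.830-fold to 1.29-fold. The summed levels of nociceptor markers overlapped too, with the 4 peptidergic markers summing to 1563 to 2005 CPM in burn libraries and 1855 to 2012 CPM in controls, and the 4 nonpeptidergic ones to 473 to 491 CPM in burn libraries and 446 to 535 CPM in controls. By log2 fold change, 4 of 4 peptidergic and 2 of 4 nonpeptidergic markers were negative. Of these 8 markers 1, P2rx3, named after its values were seen, was higher in every burn library than in any control (log2 fold change 0.13, SE 0.10, edgeR adjusted p 0.9998). Of all genes tested, 4.33% were. In bulk tissue, fewer cells of a type and less RNA per cell cannot be told apart, and this holds for every level given here.

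Scn9a, the tetrodotoxin-sensitive channel of nociceptors, varied most between libraries, with a coefficient of variation of 25.7%. It stood at 452, 535 and 817 CPM in burn libraries 1 to 3 and at 521, 447 and 703 CPM in control libraries 1 to 3. The deeper library of each group was the high one, and the other 4 lay between 447 and 535 CPM. The log2 fold change was 0.11 (SE 0.26), with an interval from 0.712-fold to 1.64-fold, and without burn 3 it was -0.16, without control 2 -0.027. Its SE was the largest of the 9, at 8032 to 55913 reads per library.

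The channels of fast-conducting neurons did not separate by group either. Scn1a had 165, 206 and 243 CPM in burn libraries and 188, 161 and 261 CPM in controls. Its means were nearly equal, with a log2 fold change of 0.0073 (SE 0.21, interval 0.710-fold to 1.42-fold) whose sign changed in 5 of 16 alternative settings. Scn8a had 193, 213 and 237 CPM in burn libraries and 164, 188 and 220 CPM in controls. Control 1 and control 2 were the lowest, and control 3 lay among the burn values. The log2 fold change of Scn8a was 0.17 (SE 0.15), with an interval from 0.891-fold to 1.43-fold, and it was positive in all 16 alternative settings, from 0.075 to 0.33.

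Scn3a, the embryonic channel known to return after axotomy, was low in every library. It had 183, 277 and 818 reads in burn libraries 1 to 3 and 292, 130 and 739 reads in control libraries 1 to 3, in libraries of unequal depth. Scaled for depth it stood at 8.08, 9.17 and 12.4 CPM in burn libraries and at 7.97, 7.23 and 9.29 CPM in controls. Burn 3 was the highest library, and the other 2 burn libraries lay below control 3. Its log2 fold change, 0.28 (SE 0.20), was the largest of the 9 and did not pass (unadjusted p 0.2008, edgeR adjusted p 0.9998), with an interval from 0.881-fold to 1.67-fold. It was 0.085 without burn 3. Set against Scn10a within each library, which frees the comparison from scaling, there were 9.54, 10.2 and 13.0 reads of Scn3a per 1000 of Scn10a in burn libraries and 10.4, 8.62 and 10.4 in controls. The log2 ratio differed by 0.15 between groups (exact permutation test, two-sided, p = 0.6, where 0.1 is the smallest p that 3 against 3 allows). The difference was 0.32 between the deeper pair and 0.060 among the shallower 4.

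None of the beta subunit genes passed the test. Scn2b, whose product is linked to the alpha subunit by a disulphide bond and raises its surface density, had 56.4, 62.5 and 67.3 CPM in burn libraries and 69.6, 64.4 and 79.3 CPM in controls. Only burn 3 exceeded a control, control 2. Its log2 fold change was -0.20 (SE 0.12, unadjusted p 0.1456, the lowest of the 9), with an interval from 0.718-fold to 1.06-fold, and it was negative in all 16 alternative settings, from -0.26 to -0.047. With library totals as the sole scaling Scn2b was the 1 member without overlap, lower after the burn. Of all genes 6.56% did not overlap, counting both directions. Scn3b, a non-covalently bound beta subunit, stood at 71.2, 78.1 and 89.2 CPM after the burn and at 76.5, 81.9 and 90.5 CPM in controls, and its log2 fold change was -0.061 (SE 0.12, interval 0.786-fold to 1.17-fold). Scn4b, whose intracellular tail can block the open pore and so underlies resurgent current, stood at 275, 372 and 322 CPM after the burn and at 332, 299 and 391.6 CPM in controls, with a log2 fold change of -0.077 (SE 0.16, interval 0.734-fold to 1.22-fold). Burn and control values of Scn3b and Scn4b interleaved.

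The log2 fold change was positive in 6 of 6 alpha genes, although Scn1a turned negative with library totals as the sole scaling (-0.020). It was negative in 3 of 3 beta genes, although Scn3b (0.083) and Scn4b (0.066) turned positive when libraries were scaled to the summed counts of the pan-neuronal genes. Over all genes tested 52.1% were positive, and none of the members' signs came with a called change. Pan-neuronal scaling moved the median of all genes to 0.15 and made 79.8% of all genes positive. Under it 3 of 9 members, Scn3a, Scn8a and Scn11a, were higher in every burn library than in any control. Of all genes 5.92% did not overlap, counting both directions. Scn8a then stood at 222, 202 and 254 in burn libraries and at 170, 200.4 and 171 in controls, in CPM so scaled. No member was called under it, and the lowest unadjusted p was 0.0719, for Scn8a.

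The make-up of the family was then compared within libraries. As a share of the summed RPKM of the 6 alpha genes, Scn10a made up 40.2% ± 1.75 after the burn and 39.7% ± 3.25 in controls (SD, n = 3). Scn11a made up 31.7% ± 2.33 after the burn and 32.3% ± 0.745 in controls, and Scn9a made up 16.5% ± 3.50 after the burn and 16.3% ± 1.88 in controls. These channels of nociceptors held most of the summed alpha level in both groups. Scn1a took 6.47% ± 0.596 after the burn and 6.82% ± 0.893 in controls. Scn8a took 4.83% ± 0.0155 after the burn and 4.56% ± 0.322 in controls, and Scn3a took 0.280% ± 0.0349 after the burn and 0.248% ± 0.0116 in controls. Each of these 6 differences between group means was smaller than the larger of its SDs. Of the 3 beta genes Scn4b held 69.8% ± 2.76 after the burn and 69.1% ± 1.36 in controls. The summed RPKM of the beta genes relative to the alpha genes was 0.317, 0.367 and 0.306 in burn libraries and 0.389, 0.364 and 0.368 in controls, which overlap by burn 2 and control 2.

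**Figure D3:**
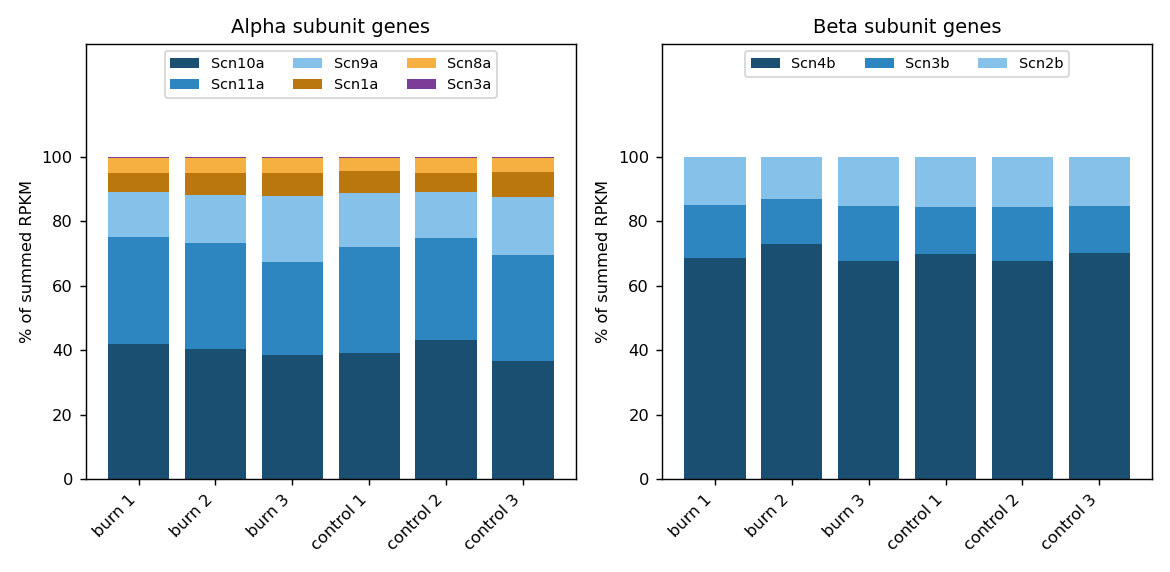
Share of each gene in the summed RPKM of the 6 alpha genes (left) and of the 3 beta genes (right), in percent (vertical axis), with 1 bar per library, burn before control. Scn10a forms 36.7% to 43.2% of the alpha bar and Scn4b 67.5% to 72.9% of the beta bar, and Scn9a is widest in burn 3 (20.5%) and control 3 (18.1%).

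Several of these levels moved with sequencing depth. In 5 of 9 members (Scn1a, Scn3a, Scn8a, Scn9a and Scn3b) both deeper libraries, burn 3 and control 3, lay above all 4 shallower ones, where 15.2% of all genes did. On the log2 scale the deeper pair exceeded the others by 0.64 in Scn9a, 0.49 in Scn1a, 0.41 in Scn3a, 0.28 in Scn8a and 0.23 in Scn3b, and by 0.14 in Scn10a. The mitochondrial share was also highest in that pair, and its part in these levels was not tested. Within depth, burn exceeded control in both strata for Scn3a (0.42 and 0.18, deeper pair and shallower libraries), Scn8a (0.11 and 0.21), Scn9a (0.22 and 0.027) and Scn10a (0.10 and 0.12), and lay below it in both for Scn2b (-0.24 and -0.17) and Scn3b (-0.020 and -0.087). The strata had opposite signs for Scn1a (-0.10 and 0.081), Scn11a (-0.14 and 0.16) and Scn4b (-0.28 and 0.023). With a term for depth in the fit, 0 of 9 members were called, and the lowest adjusted p among them was 0.956.

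**Figure D4:**
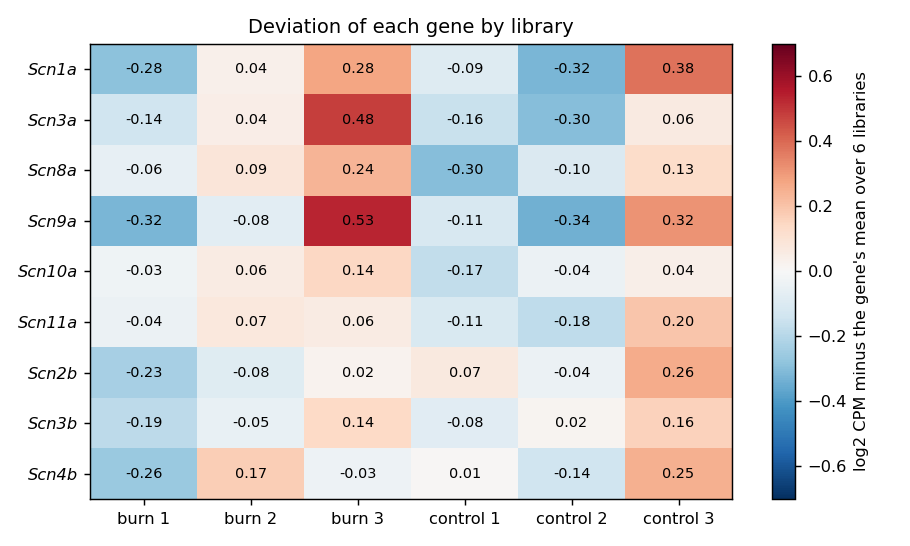
Deviation of each gene's log2 CPM from its own mean over 6 libraries, printed in each cell and coloured from blue (below) to red (above), with burn libraries on the left. Burn 3 and control 3 are red in most rows, up to 0.53 for Scn9a in burn 3, and burn 1 is below 0 in all 9 rows.

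**Figure D5:**
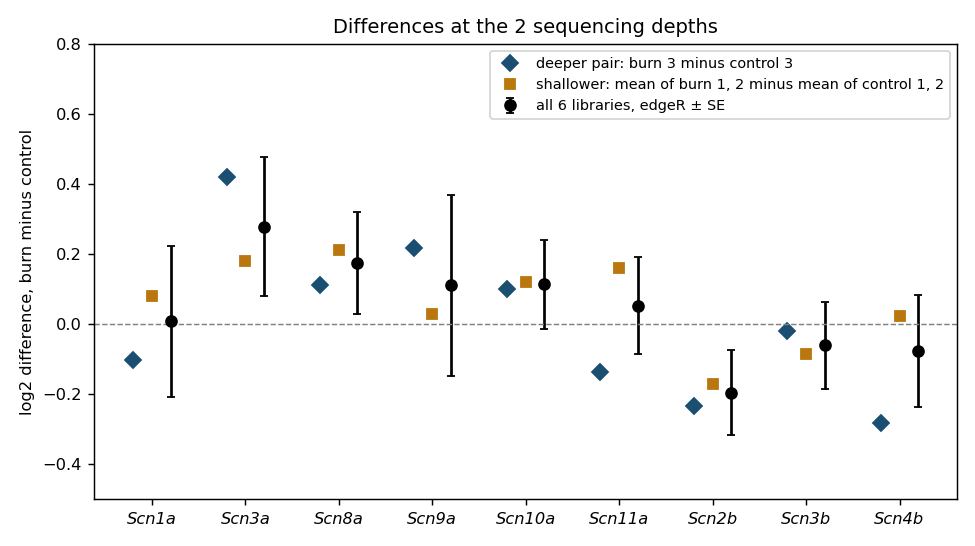
Log2 difference of burn minus control (vertical axis) in the deeper pair (diamonds), among the 4 shallower libraries (squares) and over all 6 libraries from edgeR with SE bars (circles). Scn2b lies below 0 and Scn3a above 0 in all cases, while Scn1a, Scn11a and Scn4b have opposite signs in the deeper pair and the shallower libraries.

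How the members varied together over the 6 libraries is given as Pearson correlations of log2 CPM, a description of libraries in which all genes share depth and preparation. Scn8a on chromosome 15 and Scn10a on chromosome 9 varied together most closely of all 36 pairs (r = 0.989). Among 9215 other genes of sufficient level, Scn8a was the one most like Scn10a. Scn1a and Scn9a, neighbours on chromosome 2, came next (r = 0.937), then Scn3a and Scn9a (r = 0.909). Scn10a and its neighbour Scn11a had r = 0.663, and Scn10a and Scn2b had r = 0.0703. The genes most like the others were Fam169a for Scn9a (r = 0.999), Dync1li2 for Scn1a (r = 0.998), Ap2m1 for Scn11a (r = 0.998), Atp2b2 for Scn8a (r = 0.996), Hsd17b4 for Scn2b (r = 0.995), Rcor3 for Scn3a (r = 0.993), Ccdc181 for Scn4b (r = 0.991) and Gtf2b for Scn3b (r = 0.990). With 6 libraries high values are common: 8.91% of the candidate genes had r over 0.9 with Scn9a, and 1.26% with Scn10a.

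Other genes of the sodium channel system did not pass either. The lists held 5 further sodium channel genes, under 6 symbols because Scn2a1 was also listed as Scn2a, its newer symbol, which the files do not use, and 24 partners, among them the intracellular FGF-family modulators, the ankyrin and spectrin anchors, paranodal adhesion proteins and the ubiquitin ligases that retrieve channels. In edgeR 0 of the 5 and 0 of the 24 were called, and unadjusted p-values under 0.05 were found in 0 of either list. Neither DESeq2 nor limma-voom called any of them. Median log2 fold changes were 0.13 and 0.12, and 3 of 5 and 15 of 24 were positive. The lowest unadjusted p was that of Scn2a1, which encodes NaV1.2, a channel mainly of the central nervous system. Scn2a1 had 17.2, 16.7 and 24.2 CPM in burn libraries and 15.4, 13.1 and 16.0 CPM in controls. It was the 1 of the 5 whose groups did not overlap, beside 4.33% of all genes with burn higher. Its log2 fold change was 0.38 (SE 0.18), with an edgeR adjusted p of 0.9998.

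Markers of spinal cord tissue were also higher in burn libraries by value. All 9 listed spinal cord genes had reads in every library and a positive log2 fold change (median 1.30), 8 of 9 with an unadjusted p under 0.05 and 0 called by edgeR, and their summed level was 85.4 to 175 CPM in burn libraries and 44.4 to 83.8 CPM in controls. Mobp and Aqp4 made up most of that sum, and both overlapped between groups. In 6 of the 9 every burn value lay above every control value (4.33% of all genes). These 6 were low, the highest value being 11.7 CPM for Slc6a5 in burn 3. The part of spinal cord transcripts in the level of Scn2a1, or of any sodium channel member, was not tested. Central neurons also express several members, among them Scn1a, Scn8a and Scn2b. Scn4a, the channel of skeletal muscle, had 19.1, 49.0 and 15.9 CPM in burn libraries and 43.3, 20.9 and 12.4 CPM in controls, beside a summed level of 10 skeletal muscle genes of 2511, 9658 and 1617 CPM in burn libraries and 10626, 3533 and 619 CPM in controls. The libraries high in muscle transcripts, burn 2 and control 1, were those high in Scn4a. Scn7a, an atypical family member of glia and neurons that does not act as a classical voltage-gated channel, averaged 642 ± 180.0 CPM in burn libraries and 568 ± 156 CPM in control libraries (n = 3).

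Among the partners, Cntnap1, a paranodal protein of myelinated axons, had 90.3, 91.7 and 100.8 CPM in burn libraries and 72.1, 88.0 and 80.4 CPM in controls. Its log2 fold change was 0.24 (SE 0.11), with an edgeR adjusted p of 0.9998. Its 3 burn values lay above its 3 control values, as did those of Nedd4l, a ubiquitin ligase that tags sodium channels for retrieval, and of the related Nedd4. That made 3 of 24 partners, beside 4.33% of all genes with burn higher. Ank3, which encodes ankyrin-G, the anchor of sodium channels at nodes and initial segments, had 438, 401 and 693 CPM in burn libraries and 306, 451 and 367 CPM in controls. The groups overlapped by control 2, and the log2 fold change was 0.45 (SE 0.24). Ank2, the related ankyrin-B, had a log2 fold change of 0.25 (SE 0.15). Fgf13, an intracellular modulator that binds the channel's tail, had 0.20 (SE 0.23), and S100a10, a partner that carries NaV1.8 to the membrane, had 0.13 (SE 0.12).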

How the data were processed

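Libraries were built with a stranded total RNA kit and read as 75-base single ends, per the labels' protocols and design text. The authors deposited raw counts by gene symbol, with 38926 symbols and 5 tally lines (no gene) for each library. The tally lines held 49.2% to 56.2% of entries and were left out. Per the submitters' processing notes the tools were STAR, SAMtools and HTSeq, with GRCm38 and mm10 as builds; the annotation release and strand setting are not given. No molecular identifiers are mentioned.

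The main test used edgeR 4.0.16 in R 4.3.3: filterByExpr (minimum count 10, minimum total 15; 17534 genes left), TMM scaling, robust glmQLFit and glmQLFTest with group as the only term, two-sided, Benjamini-Hochberg adjusted, called under 0.05. SE is the log2 fold change divided by the square root of F, and 95% intervals use the fit's degrees of freedom. Log2 CPM used a prior count of 2. RPKM used merged exon lengths of GENCODE M21 (alternatively the longest transcript), in which all 9 members were found. No libraries of the same group were duplicates: within groups, chi-square per degree of freedom between pairs was 43.6 to 203. The tests were tested on simulated data. Alternatives were other scalings, other filters, DESeq2 1.42.0, limma-voom (limma 3.58.1), a depth term, the 4 shallower libraries, a replicate block and each library left out in turn.

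Members, lists and alternatives were chosen with earlier results of these data known. Named were all members, Atf3, the 4 listed genes with the lowest p, Fgf13, Ank3 and S100a10, and for each member the gene of highest correlation at a mean log2 CPM of at least 4. Scn4a, Scn7a, Nedd4 and Nedd4l were named after their values were seen. Figures were drawn with matplotlib 3.10.9.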

Additional observations from a re-analysis of the deposited data

How the results depend on the processing

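No sodium channel member and no partner was called by any of the 16 alternatives, with lowest adjusted p-values among members between 0.9213 and 1 (edgeR, DESeq2 or limma-voom). The number of genes called over the whole table, 4, became 10 with pan-neuronal scaling, 14 without a filter, 28 with DESeq2, 38 with the depth term (17 higher, 21 lower) and 15 in the 4 shallower libraries, and lay between 1 and 6 when each library was left out (1 without burn 2 or without any single control); the cause was not tested. Members without overlap numbered 1 with library totals alone, beside 6.56% of all genes, and 3 with pan-neuronal scaling, beside 5.92% (both directions counted). Pan-neuronal scaling made 79.8% of all genes positive. Small log2 fold changes turned sign: Scn1a with library totals (-0.020) and without a filter (-0.0061), Scn3b (0.083) and Scn4b (0.066) with pan-neuronal scaling, and Scn4b in the 4 shallower libraries (0.051). Leaving out each library gave -0.14 to 0.24 for Scn1a (negative without burn 3, control 1 or control 2), -0.16 to 0.32 for Scn9a (negative without burn 3 or control 2), -0.023 to 0.18 for Scn11a (negative without control 2), -0.14 to 0.015 for Scn3b and -0.19 to 0.043 for Scn4b (both positive without burn 1 or control 3). The log2 ratio of Scn3a to Scn10a lay between 0.014 and 0.24 when each library was left out. With the longest annotated transcript as length, the shares in burn libraries moved to 27.3% for Scn11a, 7.36% for Scn1a and 5.71% for Scn8a. Same-numbered libraries did not deviate together (correlations -0.0903 and -0.0551 for numbers 1 and 2), while burn 1 with control 2 (0.438), burn 2 with control 1 (0.382) and the deeper burn 3 with control 3 (0.444) did, and the labels pair none of them; a fit with a replicate block on these 4 libraries called 4 genes and 0 members, and gave Scn4b 0.037. Member counts were lowest for Scn3a (130 reads in control 2). With 3 libraries a group, changes inside the intervals given could pass unseen.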
